A study of Mus musculus with 2 samples.

Results

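Müller glia of the mouse retina were compared between 1 control library and 1 library of light damage in single-cell RNA sequencing data. The droplets were chosen by the measured counts of 6 genes: a droplet with at least 1500 unique molecular identifiers (UMIs, each 1 captured transcript) and under 10% mitochondrial UMIs was kept when it held at least 6 UMIs of Slc1a3, Aqp4, Gpr37, Abca8a, Ptn and Dkk3 together, from at least 2 of them, and at least 0.1% of its UMIs in them. Droplets with 5 or more UMIs of the pigment epithelium genes Rpe65, Rgr and Ttr, or of the microglia genes C1qa, C1qb and C1qc, would have been left out, and none was. This gave 71 droplets of the 9685 that passed the UMI and mitochondrial limits, 44 of 3715 in the control library and 27 of 5970 in the light damage library. No barcode was shared between the Müller glia of both libraries, and 7 were shared among all droplets that passed.

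All mice carried floxed but functional Tgfbr2 alleles (labelled WT), on a Balb-C/CD1 background with the light-sensitive form of RPE65, and were 6 to 9 weeks old. Mice of both sexes were used, and the sex-linked RNA of each library is given below. Control mice were kept in the dark for 18 h and received no bright light. Light damage mice had the same 18 h of darkness, then white light of 5000 lx for 30 min and 6 h of recovery in dim light. Retinae of 3 to 5 mice were pooled into each suspension, and dead cells were removed on magnetic beads before 3' libraries were made. Each condition is thus 1 library with no replicate, so intervals below are 95% intervals of counting error only, no p-value is given, and light cannot be told apart from any other difference between the libraries or their mice.

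Müller glia are the radial glia that span the whole retina. They take up glutamate and turn it into glutamine, buffer potassium and water, support photoreceptor metabolism and recycle part of the visual chromophore for cones. After retinal injury they enter gliosis, in which intermediate filament and acute phase genes are switched on and homeostatic genes can be reduced, and they are a source of the cytokine Lif, which acts through gp130 and the transcription factor Stat3 and is known to protect photoreceptors after light damage.

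The label was checked on 10 Müller markers that took no part in the choice of droplets (Glul, Rlbp1, Apoe, Clu, Kcnj10, Sox9, Vim, Car2, Car14 and Crym). At least 3 of them were present in 41 of 44 control and in 27 of 27 light damage droplets, and the median droplet held 6 of 10 in control and 9 of 10 after light damage. Outside the 6 genes, the genes with the largest ratio of Müller glia to rods of the same library in both libraries were Plpp3, Synpr, Efemp1, Gm3764, Cp, Slitrk2, Cd9, Chrdl1, Sparc and Ildr2. Cd9, a tetraspanin of the glial surface, had 1892 CPM (counts of the gene per 1000000 summed spliced and ambiguous UMIs) in control Müller glia and 1.77 CPM in control rods, and 2017 CPM and 3.84 CPM after light damage. These ratios describe the droplets and are no test, since the droplets were picked for glial genes.

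The droplets of the libraries differed in depth and in free RNA, RNA from broken cells that is captured in every droplet. Control Müller droplets held 1523 to 51959 UMIs with a median of 2484, and only 6 of 44 reached 10000. After light damage the range was 2330 to 49028 with a median of 22134, and 25 of 27 reached 10000. The estimated share of free RNA, from rod genes against barcodes under 50 UMIs, had a median of 20.5% in control (0.795% to 101%) and 1.81% after light damage (0.388% to 19.8%), and 7 control droplets had 50% or more. Unspliced UMIs were similar, with medians of 53.1% and 48.8%. Summed over droplets, genes rest on 116310 spliced and ambiguous UMIs in control and 317285 after light damage, so that the absence of a gene allows up to 3 UMIs, or 25.8 CPM in control and 9.46 CPM after light damage. The part of depth and free RNA in the results was not tested, and numbers of droplets with a UMI are unthinned unless stated, so that the deeper light damage droplets would hold more genes at equal levels. For some genes the values of droplets of at least 10000 UMIs, or of droplets thinned to 1500 UMIs each, are given as well.

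**Figure D1:**
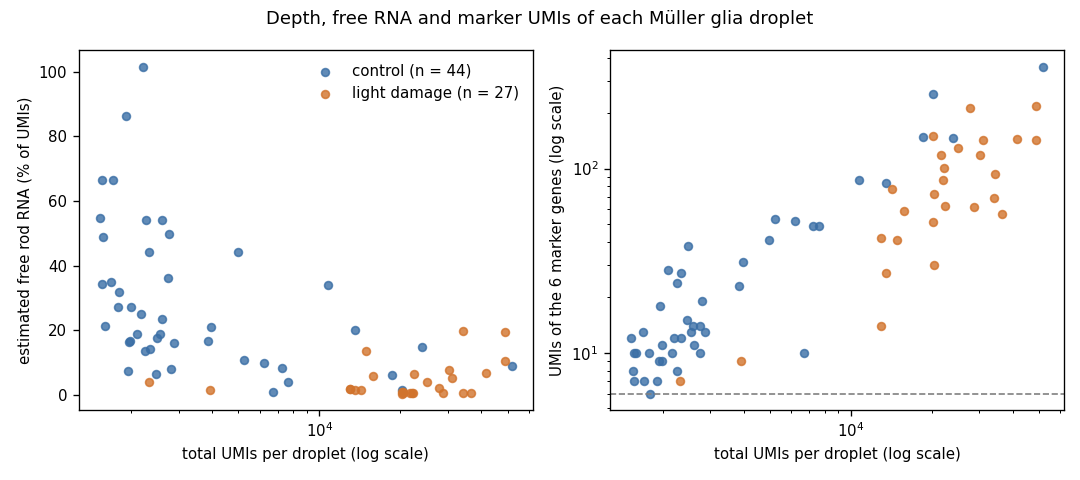
Total UMIs of each Müller glia droplet (log axis) against the estimated share of free rod RNA (left) and against the UMIs of the 6 marker genes (right, log axis, with the minimum of 6 as a dashed line), control in blue and light damage in orange. The median depth was 2484 UMIs in control and 22134 after light damage, and free RNA was highest in shallow control droplets.

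The 6 genes that chose the droplets are given as a description. Slc1a3, the main glutamate transporter of Müller glia, had 1513 CPM in control and 1525 CPM after light damage, a log2 ratio of 0.01 (interval -0.24 to 0.27). Dkk3, a secreted relative of Wnt antagonists, had 2218 and 1797 CPM (log2 ratio -0.30, -0.52 to -0.09), a direction that turned to 0.24 when centred on the median gene and to 0.43 when each droplet was thinned to 1500 UMIs. The other genes of the rule were lower after light damage. The water channel gene Aqp4 had 2210 and 596 CPM (-1.89, -2.17 to -1.61), the transporter gene Abca8a had 1642 and 618 CPM (-1.41, -1.71 to -1.12), the growth factor gene Ptn had 860 and 277 CPM (-1.63, -2.06 to -1.20), and the receptor gene Gpr37 had 1126 and 145 CPM (-2.96, -3.48 to -2.46). A droplet had to hold 6 UMIs of these genes to be counted, so a light damage droplet with lower levels needed more depth to enter. Droplets not picked for these genes were deeper after light damage too. Median UMIs were 2718 and 3094.5 in rods under 30% unspliced and 4005 and 6362 in rods of at least 30% unspliced. They were 2687 and 6566.5 in pigment epithelium-like droplets. The part of the rule in the depth of Müller droplets was not tested. Their share of UMIs had a median of 0.609% in control and 0.323% after light damage.

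At the threshold, 4 control droplets and 1 light damage droplet held 6 or 7 UMIs of the 6 genes. The 4 control droplets had a median of 1756 total UMIs, 57.6% free RNA and 3 of the 10 further markers. Just outside, with 5 UMIs, lay 2 control droplets and 1 light damage droplet, with a median of 4.5 and 3 of the further markers. A further 1 control and 3 light damage droplets had at least 6 UMIs but less than 0.1% of their UMIs in the genes.

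Of 4431 genes with at least 20 UMIs over both libraries, 320 (7.22%) were past 2-fold higher after light damage and 186 (4.2%) past 2-fold lower, where past 2-fold means that the whole counting interval of the ratio lies beyond 2-fold. With a minimum of 10 UMIs in place of 20, 320 were higher and 300 lower, so the excess of rises depends on the minimum. The median log2 ratio of all genes tested was 0.02. Among the 238 genes with at least 50 UMIs in both libraries it was -0.55, and centred on that value the counts became 568 higher and 71 lower. A minimum of 50 UMIs in both libraries asks for a higher CPM in control, with 116310 summed UMIs, than after light damage, with 317285. These 238 genes thus lean towards genes higher in control, and values centred on their median gene are given as an alternative only. The shares against which the gene lists below are read are 7.22% and 4.2%. A gene with no control UMI could pass the minimum of 20 UMIs through light damage alone, which held more of the UMIs. The reverse holds for genes with no UMI after light damage. List counts and medians below lean on such genes and are a description, not a test. The 77 ribosomal protein genes tested had a median log2 ratio of -0.04, and the 11 mitochondrial genes all lay below 0 with a median of -1.01.

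Several homeostatic genes were lower. Of 20 genes for glutamate, potassium, water and pH handling, 16 had enough UMIs, none was past 2-fold higher, 7 were past 2-fold lower (among them Aqp4, Glul, Car14, Slc38a3 and Gpr37, of which Aqp4 and Gpr37 belong to the rule) and 15 of 16 lay below 0. Without the 3 genes of the rule on this list (Aqp4, Gpr37 and Slc1a3), 13 genes were tested, 5 were past 2-fold lower, all 13 lay below 0 and the median log2 ratio was -1.29. With the rule genes the median was -1.30, and -0.75 when centred on the median gene.

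Glul, which encodes glutamine synthetase and lies on chromosome 1 (153899944 to 153909723, GRCm38), was the largest part of this difference. Summed over droplets it had 1073 UMIs or 9225 CPM (8682 to 9794) in control and 551 UMIs or 1737 CPM (1595 to 1888) after light damage, a log2 ratio of -2.41 (-2.56 to -2.26). Per droplet it ran from 0 through a median of 8885 to 22646 CPM in control and from 222 through 1402 to 4505 CPM after light damage, so the libraries overlapped only where control droplets were low. Among droplets of at least 10000 UMIs there was no overlap: the 6 control droplets had 7038 to 10049 CPM and the 25 light damage droplets 222 to 4185 CPM. Unspliced Glul RNA, which is mostly recent transcript, was lower too (134 and 36 UMIs, log2 ratio -3.21, -3.79 to -2.67). Thinned to 1500 UMIs, 43 of 44 control droplets (97.7%, 88.0% to 99.9%) and 18 of 27 light damage droplets (66.7%, 46.0% to 83.5%) still held a Glul UMI, beside 23 and 18 of 500 rods thinned in the same way.

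Among the other homeostatic genes, Slc38a3, a glutamine exporter gene, had 404 and 129 CPM (log2 ratio -1.64, -2.29 to -1.01). Car14, a membrane carbonic anhydrase gene, had 550 and 123 CPM (-2.16, -2.78 to -1.57). Both were less abundant after light damage by more than counting error, at 39 to 64 UMIs per library. Kcnj10, the inward rectifier potassium channel of Müller glia, had 292 and 142 CPM (-1.04, -1.72 to -0.36) and was not past 2-fold.

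The wider list of 20 Müller genes outside the rule had no common direction. Vim and Cp were past 2-fold higher, 4 genes were past 2-fold lower, among them Glul, Car14 and Spc25, and the median log2 ratio was -0.12, or 0.43 when centred on the median gene. Apoe, the lipid carrier, had 8297 and 4353 CPM (log2 ratio -0.93, -1.05 to -0.81), and Rlbp1, the retinaldehyde-binding protein of the cone visual cycle, had 2399 and 1176 CPM (-1.03, -1.26 to -0.80). Clu, a secreted chaperone, moved the other way with 3293 and 6190 CPM (0.91, 0.75 to 1.07), as did the glial transcription factor gene Sox9 with 825 and 1409 CPM (0.77, 0.45 to 1.1). None of these 4 was past 2-fold. All 20 genes of the list were detected in both libraries, at unequal ratios.

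**Figure D2:**
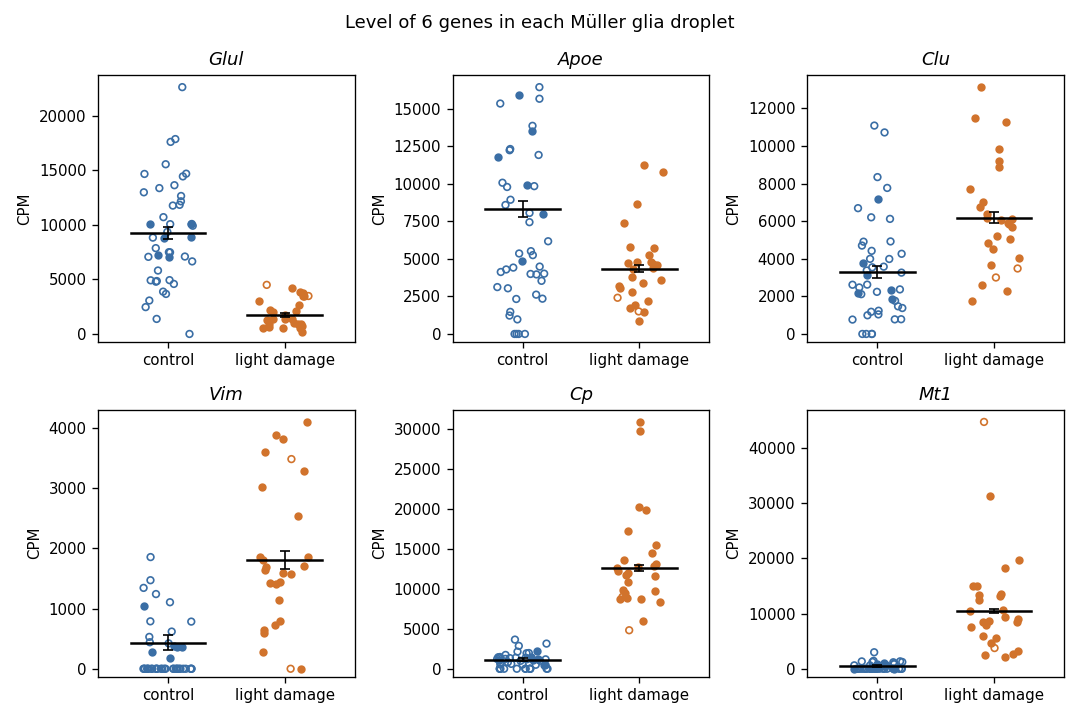
CPM of Glul, Apoe, Clu, Vim, Cp and Mt1 in each Müller glia droplet of the control library (blue, n = 44 droplets) and of the light damage library (orange, n = 27), with droplets of at least 10000 UMIs filled. Black lines are the CPM of the summed droplets with 95% counting intervals. Cp and Mt1 of deep droplets do not overlap between libraries, and neither does Glul, which goes the other way.

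Gliosis genes were higher almost throughout. Of 24 genes on this list 19 had enough UMIs, 16 were past 2-fold higher (Gfap, Vim, Nes, Serpina3n, Lcn2, Ptx3, Cd44, Timp1, Osmr, Steap4, Cp, Gbp2, A2m, Icam1, Sphk1 and Ednrb), none was past 2-fold lower and the median log2 ratio was 4.48. In control, 15 of the 24 had no UMI in any of the 44 droplets. The median droplet held UMIs of 1 of the 24 genes in control and of 12 after light damage, and among droplets of at least 10000 UMIs 4.5 (3 to 6) and 12 (7 to 17), so the ranges did not overlap at that depth.

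Cp, which encodes the copper-carrying ferroxidase ceruloplasmin (chromosome 3, 19957054 to 20009145), was the most abundant of them and was present without damage. It rested on 131 UMIs or 1126 CPM (942 to 1337) in control and 4000 UMIs or 12607 CPM (12219 to 13004) after light damage, a log2 ratio of 3.48 (3.23 to 3.75). In droplets of at least 10000 UMIs, control values were 462 to 2201 CPM and light damage values 5977 to 30901 CPM. Unspliced Cp RNA had 232 and 3238 UMIs (2.49, 2.29 to 2.68). Every one of the 27 light damage droplets and 26 of 44 control droplets kept a Cp UMI after thinning, against 1 and 0 of 500 rods. Free RNA held only 3.18 CPM of Cp in control and 61.9 CPM after light damage.

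Vim, an intermediate filament gene of Müller glia at rest, had 430 and 1809 CPM (log2 ratio 2.07, 1.65 to 2.52). Gfap, the filament gene used most often to mark gliosis, and Nes, a filament gene of neural progenitors, had no UMI in control. After light damage Gfap had 118 UMIs in 14 of 27 droplets, at least 14.4-fold higher than control, and Nes had 142 UMIs in 22 droplets, at least 17.4-fold higher. Gfap was seen in about as many droplets as it was missing from, with 41 of its 118 UMIs in 1 droplet. After thinning, Gfap was in 5 and Nes in 3 of 27 light damage droplets and neither in control. Gfap is also an astrocyte gene, and of the other 4 astrocyte markers Pax2 and Pdgfra were at 0 in both libraries and Aldh1l1 had 43.0 and 53.6 CPM.

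Secreted and surface gliosis genes followed. Cd44, a hyaluronan receptor gene, had 310 and 1544 CPM (2.32, 1.83 to 2.85) and was seen in 14 of 44 and 26 of 27 droplets, or 8 and 22 after thinning. Timp1, a protease inhibitor gene, went from 0 to 120 UMIs in 16 droplets (at least 14.7-fold), and Serpina3n, an acute phase inhibitor gene, from 0 to 78 UMIs in 10 droplets (at least 9.53-fold). Lcn2, the iron-binding lipocalin of inflammation, had 318 UMIs after light damage but in only 6 droplets, with 40.6% of them in 1 droplet. Ednrb, the receptor for endothelin, had 2 and 130 UMIs (4.57, 2.69 to 7.64) and Gbp2, an interferon-inducible GTPase gene, 0 and 126 UMIs in 25 droplets, or 7 after thinning. S1pr3 (0.93, 0.23 to 1.70) and Lgals3 (-0.23, -1.70 to 1.44) were not past 2-fold.

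Genes of gp130 and JAK-STAT signalling were higher at several levels of the pathway. Of 22 genes 11 had enough UMIs, 8 were past 2-fold higher, none lower, and the median log2 ratio was 2.14. Among ligands, which are on the list of growth and survival factors, Lif had no UMI in control and 326 UMIs in 22 of 27 light damage droplets (1028 CPM, at least 39.8-fold higher), and Clcf1, which signals through the same receptor subunit, had 1 and 75 UMIs (4.78, 2.26 to 10.10). After thinning, a Lif UMI remained in 0 of 44 and 11 of 27 droplets (40.7%, 22.4% to 61.2%), beside 0 and 1 of 500 rods. Summed without thinning, rods of at least 30% unspliced held 0 and 19 Lif UMIs and pigment epithelium-like droplets 0 and 10.

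On the receiving side, Il6st, which encodes gp130, had 103 and 400 CPM (1.96, 1.1 to 2.95) and the oncostatin M receptor gene Osmr had 146 and 760 CPM (2.38, 1.67 to 3.18). The kinase gene Jak1 had 94.6 and 432 CPM (2.19, 1.31 to 3.23) and Stat3 had 86.0 and 397 CPM (2.21, 1.28 to 3.30). Cntfr, the receptor for ciliary neurotrophic factor, lay below 0 with 232 and 75.6 CPM (-1.62, -2.47 to -0.77) and was not past 2-fold. The targets and feedback genes Socs3 (1 and 50 UMIs, 4.20, 1.65 to 9.53) and Socs1 (0 and 54 UMIs, at least 6.60-fold) were higher as well, while Pim1 (0.38, -0.54 to 1.39) was not past 2-fold.

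Promoters of Gfap, Socs3 and Lif are shown as examples of a gliosis gene, a STAT feedback gene and a ligand gene past 2-fold higher. The sequences are RefSeq promoters on GRCm38.p6, 250 bases before to 50 after a start site, read 5' to 3' on the strand of the gene: chr11:102897151-102897450 (minus strand) for Gfap, chr11:117969317-117969616 (minus strand) for Socs3 and chr11:4257318-4257617 (plus strand) for Lif. Capitals mark a STAT motif (TTCNNNGAA) in Gfap and Socs3 and an AP-1 motif (TGANTCA) in Lif; both motifs read the same on both strands.
Gfap: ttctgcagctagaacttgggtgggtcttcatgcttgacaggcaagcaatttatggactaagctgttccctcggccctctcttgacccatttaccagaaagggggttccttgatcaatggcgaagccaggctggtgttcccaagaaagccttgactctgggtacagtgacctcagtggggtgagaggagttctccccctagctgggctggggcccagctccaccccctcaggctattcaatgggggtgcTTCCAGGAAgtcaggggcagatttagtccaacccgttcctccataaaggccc
Socs3: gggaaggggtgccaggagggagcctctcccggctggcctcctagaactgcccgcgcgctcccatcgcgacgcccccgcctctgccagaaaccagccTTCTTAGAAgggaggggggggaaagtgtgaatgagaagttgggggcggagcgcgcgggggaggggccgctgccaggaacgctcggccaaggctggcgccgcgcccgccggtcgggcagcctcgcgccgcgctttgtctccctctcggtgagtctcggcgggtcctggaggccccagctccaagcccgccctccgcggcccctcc
Lif: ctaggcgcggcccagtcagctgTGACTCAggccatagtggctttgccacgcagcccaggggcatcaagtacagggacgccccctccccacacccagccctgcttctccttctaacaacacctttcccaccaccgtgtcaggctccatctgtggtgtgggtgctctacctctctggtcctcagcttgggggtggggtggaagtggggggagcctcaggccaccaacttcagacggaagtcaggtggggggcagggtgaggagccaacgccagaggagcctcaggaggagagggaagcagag

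The STAT motif began 2 bases before the annotated start of Gfap, and so ran across it, and 154 bases before that of Socs3. Of all 27025 genes with a promoter of this length 9.55% held it, and on the gliosis list it was in 4 of 23 genes with a promoter (Gfap, Icam1, Sphk1 and Steap4) and on the JAK-STAT list in 2 of 19 (Cish and Socs3). The AP-1 motif began 228 bases before the Lif start and was present in 8.97% of all genes. It was found in 5 of the 11 genes with a promoter among the 15 largest rises (Ifi203, Lif, Mndal, Mt2 and Tnfaip6). Of these, Ifi203 and Mndal are neighbours of 1 gene family. Among the 10 largest falls it was in 1 of 7 (Gngt1). On the lists it was in 0 of 21 early response, 1 of 19 JAK-STAT and 2 of 14 chemokine and cytokine genes. It was in 5 of 23 gliosis, 4 of 9 NF-kB and 5 of 16 growth and survival factor genes. A match describes these letters and is not evidence of binding.

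Most of the early response genes tested were higher. Of 26 genes 18 had enough UMIs, 15 were past 2-fold higher and all 18 lay above 0, with a median log2 ratio of 4.07. The 26 genes together had 56 UMIs in control and 2436 after light damage, or 481 and 7678 CPM. In control 16 of the 26 had no UMI, and those tested among them passed the minimum through light damage alone. Of the AP-1 subunits, Fos had 0 and 282 UMIs in 20 droplets (at least 34.5-fold higher), Fosl1 had 0 and 241 UMIs in 25 droplets (at least 29.4-fold), Junb had 0 and 180 UMIs in 26 droplets (at least 22-fold) and Jun had 7 and 289 UMIs (3.92, 2.86 to 5.25). Fosl1 also had 291 unspliced UMIs after light damage and none in control. Jund, which is often expressed at rest, had 189 and 476 CPM (1.33, 0.68 to 2.05) and was not past 2-fold.

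Other members were transcription factor and feedback genes. Egr1, an immediate early zinc finger gene, had 0 and 254 UMIs in 23 droplets (at least 31.0-fold higher). Ier3, which limits NF-kB signalling and cell death, had 3 and 223 UMIs (4.77, 3.20 to 7.06), Klf6 had 4 and 148 UMIs (3.76, 2.37 to 5.66) and the matricellular gene Ccn1 had 4 and 177 UMIs (4.02, 2.64 to 5.91). Of the genes named here, each was found in at least 20 of the 27 light damage droplets and in at most 11 control droplets. Thinned to equal depth, each was found in 6 to 11 of 27 light damage droplets and in 0 to 4 of 44 control droplets, with Jund in 6 and 4.

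Metallothionein and C/EBP genes were past 2-fold higher in 4 of the 5 genes tested of 9 listed (Cebpb, Cebpd, Mt1 and Mt2), with a median log2 ratio of 3.88. Metallothioneins bind zinc and copper and scavenge radicals, and C/EBP proteins drive acute phase genes. Mt1 had 54 UMIs or 464 CPM in control and 3334 UMIs or 10508 CPM after light damage (4.50, 4.11 to 4.92), and Mt2 had 8 and 1301 UMIs, or 68.8 and 4100 CPM (5.90, 4.91 to 7.11). In droplets of at least 10000 UMIs, Mt1 ran from 0 to 957 CPM in the 6 control droplets and from 2060 to 31354 CPM in the 25 light damage droplets. Both genes were thus higher in every deep light damage droplet than in any deep control droplet. Free RNA held 437 CPM of Mt1 in control and 4129 CPM after light damage, and made up 18.7% and 5.29% of the summed Müller UMIs. Cebpd had 22 and 903 UMIs (3.91, 3.30 to 4.59) and Cebpb 6 and 214 UMIs (3.71, 2.56 to 5.17), whereas Cebpg had 77.4 and 154 CPM (1.00, -0.04 to 2.21) and was not past 2-fold. Mt1 and Mt2 are close copies, and reads that match both could have been split or dropped in counting.

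The Mt2 promoter (RefSeq, GRCm38.p6, chr8:94172368-94172667, plus strand) is shown because it holds 4 matches to the cores of the metal response element, in capitals (TGCACNC or TGCGCNC, on either strand). These cores were in 14.2% and 17.0% of all genes with a promoter. Apart from them it has an AP-1 motif 79 bases before the start site.
Mt2: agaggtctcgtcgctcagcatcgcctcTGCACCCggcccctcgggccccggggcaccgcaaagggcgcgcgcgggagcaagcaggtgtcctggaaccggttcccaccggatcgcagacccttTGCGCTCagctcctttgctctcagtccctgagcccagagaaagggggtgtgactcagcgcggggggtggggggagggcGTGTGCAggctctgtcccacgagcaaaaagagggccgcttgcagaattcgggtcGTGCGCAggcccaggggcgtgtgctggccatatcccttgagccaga

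Some NF-kB and chemokine genes were higher, and some chemokines were unevenly spread over droplets. Of 12 NF-kB genes 7 had enough UMIs, all lay above 0 and 3 were past 2-fold higher: Nfkbia, which encodes the inhibitor that NF-kB itself induces (2 and 135 UMIs, 4.63, 2.75 to 7.69), Nfkb1 (5 and 70 UMIs, 2.36, 1.07 to 4.03) and Relb (2 and 63 UMIs, 3.53, 1.62 to 6.61). Of 18 chemokine and cytokine genes 9 were tested and 6 were past 2-fold higher (Ccl2, Ccl7, Cxcl1, Cxcl2, Cxcl12 and Tnfrsf12a). Ccl2, the main monocyte attractant, had 0 and 141 UMIs in 11 of 27 droplets (at least 17.2-fold higher), and Cxcl1, a neutrophil attractant, 0 and 89 UMIs in 11 droplets (at least 10.9-fold).

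Cxcl2 had 223 UMIs after light damage but in 4 droplets, with 60.5% of them in 1. A single droplet also gave 82 of the 150 UMIs of the alarmin Il33, whose log2 ratio (1.32, 0.67 to 2.04) was not past 2-fold. In contrast, Tnfrsf12a, the receptor for TWEAK, was found in 22 droplets with at most 25 of its 275 UMIs in any of them. Ccl2, Cxcl1 and Cxcl2 were thus found in under 12 of 27 droplets each and the receptor in most. The microglia markers, 8 genes, summed to 25.8 and 12.6 CPM with 6 and 7 of them at 0, C1qa, C1qb and C1qc being part of the choice of droplets.

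Growth and survival factors split. Of 23 genes 10 were tested, with 5 past 2-fold higher (Lif, Clcf1, Fgf2, Bdnf and Hbegf) and 2 past 2-fold lower (Fgf9 and Ptn, the latter a gene of the rule). Fgf2, a photoreceptor survival factor, had 1 and 86 UMIs (4.98, 2.46 to 10.30) in 21 of 27 droplets, Bdnf had 2 and 81 UMIs (3.89, 1.99 to 6.96) in 17 droplets, and Hbegf, an epidermal growth factor receptor ligand, had 2 and 137 UMIs (4.65, 2.77 to 7.71) in 24 droplets. Fgf9 had 181 and 25.2 CPM (-2.84, -4.22 to -1.61). Vegfa (-0.92, -1.66 to -0.15), Igf2 (-0.14, -0.94 to 0.71) and Manf (0.14, -0.76 to 1.12) were not past 2-fold.

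Antioxidant genes were higher in a subset. Of 21 genes 14 were tested, 5 were past 2-fold higher and none lower, and the median log2 ratio was 0.23. The 5 were Slc7a11, which encodes the cystine importer that feeds glutathione synthesis (2 and 535 UMIs, 6.62, 4.76 to 9.66), the stress heme oxygenase gene Hmox1 (0 and 92 UMIs, at least 11.2-fold), the thioredoxin reductase gene Txnrd1 (3 and 150 UMIs, 4.20, 2.62 to 6.49), the sulfiredoxin gene Srxn1 (0 and 175 UMIs, at least 21.4-fold) and the mitochondrial superoxide dismutase gene Sod2 (86.0 and 473 CPM, 2.46, 1.54 to 3.55). Slc7a11 was in all 27 light damage droplets and in 2 control droplets. Other genes of the list did not share this: Gpx4 had a log2 ratio of -0.78 (-1.1 to -0.46), Prdx6 of -1.41 (-1.82 to -0.99), Sod1 of -0.06 (-0.92 to 0.87) and Gclm of -0.51 (-1.27 to 0.28), none past 2-fold.

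Ranked by the end of the interval nearest 0, with at least 50 UMIs and 10 droplets, the 15 largest rises were Ifi203, Akap12, Tnfaip6, Gadd45b, Scg2, Lif, 9330188P03Rik, Mt2, Fos, Tnfrsf12a, Slc7a11, Egr1, Mndal, Fosl1 and Cdkn1a. Akap12, a scaffold of protein kinase A, had 3 and 1003 UMIs (6.94, 5.39 to 9.22) and was in all 27 light damage droplets, with 549 to 9951 CPM in those of at least 10000 UMIs against 0 to 191 CPM in deep control droplets. The long non-coding RNA 9330188P03Rik had 6 and 1149 UMIs (6.13, 5.01 to 7.58) and was in 26 droplets. Gadd45b, a stress-induced gene, had 0 and 346 UMIs in 25 droplets (at least 42.3-fold higher), and the cell cycle inhibitor gene Cdkn1a 0 and 216 UMIs in 24 droplets (at least 26.4-fold).

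Other rises rested on fewer droplets. Tnfaip6, a hyaluronan-binding secreted protein gene, had 1 and 578 UMIs, of which 69.2% lay in 1 droplet, and Scg2, a granin gene, had 1 and 505 UMIs in 15 droplets. Ifi203 and Mndal, interferon-inducible genes on chromosome 1, had no control UMI and 558 and 249 UMIs in 22 and 24 light damage droplets. They belong to a family of near-identical neighbours, and counting could have split reads between its members, so their separate values are uncertain.

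The 10 largest falls were Gngt1, Pde6g, Tox3, Gpr37, Col9a1, Msi1, Glul, Abca8b, Rcvrn and Cirbp. Gngt1, Pde6g and Rcvrn are rod genes, and their falls go with the rod transcripts described below. Msi1, an RNA-binding protein gene of neural progenitors and glia, had 2631 and 416 CPM (-2.66, -2.97 to -2.36), with unspliced RNA at -2.43 (-2.90 to -1.96). Tox3, a chromatin protein gene, had 490 and 47.3 CPM (-3.37, -4.30 to -2.53), Col9a1, a collagen gene, 370 and 34.7 CPM (-3.41, -4.52 to -2.44), Abca8b, a neighbour and close copy of Abca8a, 344 and 37.8 CPM (-3.18, -4.25 to -2.23), and the cold-inducible RNA-binding protein gene Cirbp 438 and 56.7 CPM (-2.95, -3.81 to -2.15). For the glial genes among them, Tox3, Col9a1, Msi1 and Abca8b, the unspliced RNA was lower as well, at log2 ratios of -2.47, -3.97, -2.43 and -2.52.

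Progenitor and reprogramming genes were not past 2-fold higher in any of the 18 tested of 26 listed. Six3 was past 2-fold lower with 653 and 224 CPM (-1.55, -2.03 to -1.06), as was the Notch target Hes5 with 30 and 0 UMIs, although 20 of the 30 lay in 1 control droplet. Sox2 had 387 and 542 CPM (0.49, 0.01 to 0.99), Pax6 had 636 and 227 CPM (-1.49, -1.98 to -1.0) and Notch1 had 249 and 321 CPM (0.37, -0.24 to 1.01). The median log2 ratio was -0.61, and -0.06 when centred on the median gene.

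Lipid and glucose genes leaned lower, and less so when centred on the genes with at least 50 UMIs in both libraries. Of 14 lipid and cholesterol genes tested of 20, Abca8a, a gene of the rule, and Acsl3 were past 2-fold lower and none higher, with a median of -0.76 and a centred median of -0.21. Without Abca8a, 13 genes had a median of -0.59. Acsl3, which activates fatty acids for lipid droplets, had 3250 and 703 CPM (-2.21, -2.45 to -1.97), with unspliced RNA at -3.31 (-3.79 to -2.85), and in deep droplets 1708 to 6795 CPM in control and 0 to 4337 CPM after light damage. Of 11 glucose and lactate genes tested of 20, only Aldoc, the glial aldolase gene, was past 2-fold lower with 662 and 154 CPM (-2.10, -2.65 to -1.56), and the median of -0.55 became -0.0047 when centred. None of the 5 visual cycle and retinoid genes tested of 16 was past 2-fold, with a median of -1.11 and a centred median of -0.56.

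In the TGF-beta list, 10 of 24 genes were tested and 4 were past 2-fold higher, none lower (median 1.73, or 0.74 with unspliced UMIs added). These were the receptor gene Acvr1 (0 and 41 UMIs, at least 5.01-fold), Smad1 (0 and 36 UMIs, at least 4.40-fold), the inhibitor gene Smad7 (1 and 33 UMIs, 3.60, 1.02 to 8.94) and the repressor gene Tgif1 (0 and 30 UMIs, at least 3.67-fold). They are known both as mediators and as brakes of the pathway and rest on few UMIs. Tgfb2, the ligand of Müller glia, had 585 and 1119 CPM (0.94, 0.56 to 1.33) in 19 and 27 droplets (10 and 14 after thinning) and was not past 2-fold. Smad3 had 2 and 39 UMIs (2.84, 0.89 to 5.93) but 3 and 282 unspliced UMIs (5.24, 3.68 to 7.52).

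Of the stress lists, 10 of 21 heat shock and stress response genes were tested and 3 were past 2-fold higher, Bag3, Gadd45a and Gadd45b, with a median of 1.1. Hspa5, the chaperone of the endoplasmic reticulum, had 335 and 797 CPM (1.25, 0.76 to 1.78) and was not past 2-fold. Among 5 glucocorticoid response genes tested of 11, Cdkn1a was past 2-fold higher and the median was -0.21, or 0.34 when centred. Among 8 clock genes tested of 15, Per3 was past 2-fold lower with 232 and 25.2 CPM (-3.20, -4.55 to -2.02), and Arntl lay above 0 with 138 and 337 CPM (1.29, 0.53 to 2.15).

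Transcripts of other cell types and of the sexes differed between the groups of droplets. All 10 rod markers lay lower after light damage and 9 were past 2-fold, with 21460 CPM over the list in control and 4854 CPM after light damage. These values move with the share of free RNA given above, and with free RNA subtracted the median log2 ratio of the list was -1.29 in place of -2.06. The pigment epithelium markers, 6 genes, summed to 146 and 158 CPM with 3 of them at 0 in each library, the cone markers to 68.8 and 91.4 CPM and the bipolar and amacrine markers to 120 and 31.5 CPM. The 15 complement genes summed to 258 and 249 CPM, and the only 1 with enough UMIs was not past 2-fold. Of the endothelial and pericyte markers, Kdr (602 and 605 CPM) and Flt1 (851 and 1346 CPM) were present in both libraries, in 18 and 25 and in 25 and 26 droplets (11 and 8 and 16 and 18 after thinning), while Cldn5, Pecam1 and Kcnj8 did not have enough UMIs. Rgs5 was past 2-fold lower (-5.70, -11.07 to -3.04), but all 19 of its control UMIs lay in 1 droplet, and without it the ratio was 0.07. That droplet held 90 Glul UMIs, 2 Pdgfrb UMIs and no Cp UMI, and 24.0% of its UMIs were unspliced. Red blood cell markers had 0 and 1 UMI.

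Xist, the RNA of the inactive X chromosome, had 292 UMIs in 30 of 44 control droplets and none in the 27 light damage droplets, and the Y-linked genes Ddx3y and Kdm5d had 0 and 57 and 0 and 23 UMIs. Eif2s3y had 3 control UMIs, all in 1 droplet, and 30 after light damage. The sexes were thus not alike between the libraries in these droplets, and sex cannot be told apart from light.

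The same contrast was set beside rods and pigment epithelium-like droplets of the same libraries under the same UMI and mitochondrial limits. Several early response and STAT genes were higher in all of them. Fos had log2 ratios of 4.70 (4.13 to 5.34) in rods under 30% unspliced, 5.20 (4.43 to 6.11) in rods of at least 30% unspliced and 5.04 (3.91 to 6.5) in pigment epithelium-like droplets, and a control count of 0 in Müller glia. Stat3 had 3.34 (3.05 to 3.65), 2.81 (2.51 to 3.12) and 2.66 (2.08 to 3.30) in the same order, beside 2.21 (1.28 to 3.30) in Müller glia, so its intervals overlapped among these classes. Cebpd had 5.41 (4.85 to 6.03), 4.77 (3.65 to 6.22) and 4.66 (3.96 to 5.48), beside 3.91 (3.30 to 4.59).

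Other genes had intervals in Müller glia apart from those of both rod groups. Glul lay at -2.41 (-2.56 to -2.26) there, at -0.23 (-0.48 to 0.02) and -1.01 (-1.23 to -0.79) in the rod groups and at 0.35 (0.24 to 0.47) in pigment epithelium-like droplets. Slc7a11 lay at 6.62 (4.76 to 9.66), against 1.79 (0.07 to 3.88), -0.68 (-1.74 to 0.55) and 0.30 (-3.03 to 5.92). Txnrd1 lay at 4.20 (2.62 to 6.49), against -0.26 (-0.54 to 0.02), 0.23 (-0.25 to 0.75) and 1.03 (0.45 to 1.66), and Ier3 at 4.77 (3.20 to 7.06), against 0.42 (0.32 to 0.52), 1.20 (1.07 to 1.34) and 1.15 (0.56 to 1.79). For Slc7a11 the interval of pigment epithelium-like droplets, which held 1 and 4 UMIs, overlapped that of Müller glia. In microglia-like droplets, 11 in control and 36 after light damage, Slc7a11 had 0 and 22 UMIs, Txnrd1 had 0 and 172 UMIs and Ier3 had a log2 ratio of 1.02 (-0.92 to 4.11), all with intervals that overlapped those of Müller glia. Glul lay there at -0.84 (-2.10 to 0.69), apart from its interval in Müller glia. Mt1 was higher in Müller glia, rods and pigment epithelium-like droplets but by different amounts, at 4.50 (4.11 to 4.92) in Müller glia, 2.47 (2.29 to 2.66) and 3.22 (2.89 to 3.58) in rods and 1.14 (1.09 to 1.18) in pigment epithelium-like droplets, where the control level was already 5947 CPM. Intervals that do not overlap show a difference beyond counting error in these 2 libraries, and whether it would hold between mice was not tested.

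**Figure D3:**
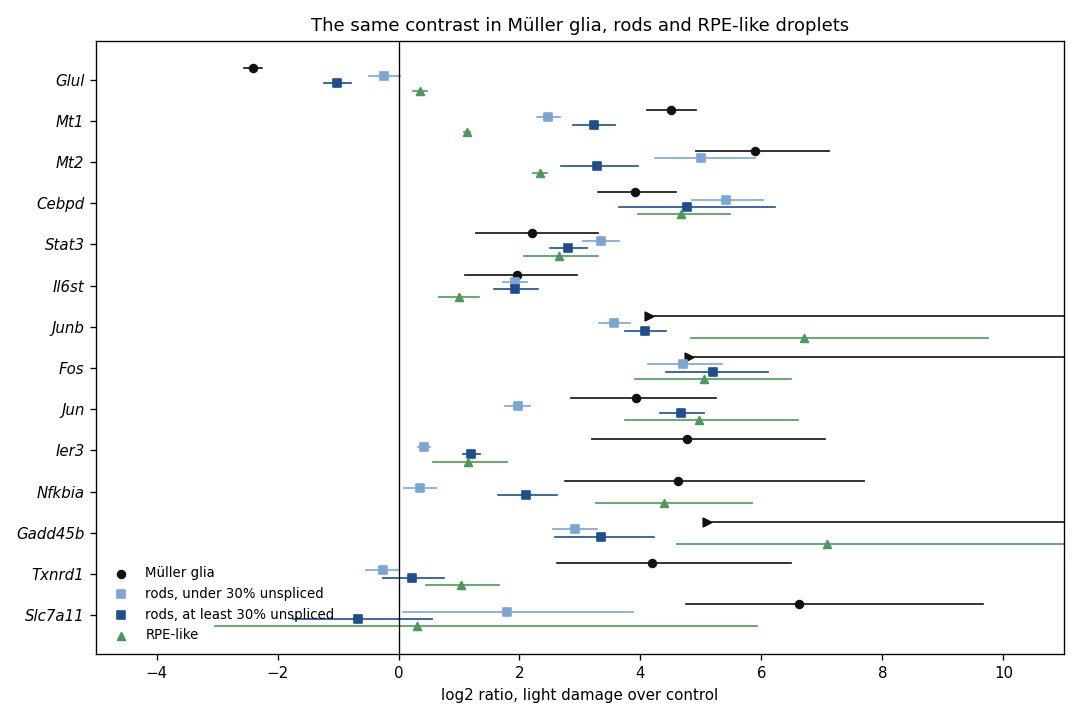
Log2 ratio of light damage over control with 95% counting intervals for 14 genes in Müller glia (black), rods under and of at least 30% unspliced UMIs (light and dark blue) and pigment epithelium-like droplets (green). Arrowheads mark the lower end of the interval where control had no UMI, and lines are drawn to 11 at most. The ratio of Glul was lower in Müller glia than in the other classes plotted, and Fos, Junb and Cebpd were higher in every class.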

How the data were processed

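The data were 2 single-cell libraries of mouse retina, 1 control and 1 light damage. The authors demultiplexed with Cell Ranger 7.0.1, mapped reads in the sketch mode of Salmon 1.10.1 to spliced and intronic sequence of mm10 and resolved UMIs with alevin-fry 0.8.1 (alevin in the submitters' processing notes), forward strand only. The deposited values are raw UMI counts per barcode and gene, split into spliced, unspliced and ambiguous, before any removal of empty droplets, doublets or free RNA; the later steps of the authors are not in them. The libraries held 30605284 UMIs over 542576 barcodes and 54413601 UMIs over 944146 barcodes. Of 32285 genes, 32235 were named from GENCODE vM21 (GRCm38); Aldoa and Ddit3 had no match.

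Spliced and ambiguous UMIs were summed per library over the chosen droplets and scaled to CPM with exact Poisson intervals (95%). Log2 ratios carry exact conditional binomial intervals, shares exact binomial intervals, and list medians add 0.5 UMI to each count. UMIs count molecules, so the intervals cover sampling of molecules and nothing between mice. Where a library had no UMI of a gene, the fold was computed against 3 UMIs over all its droplets and is printed as a lower limit. Named genes were the 15 largest rises and 10 largest falls by the interval end nearest 0 with at least 50 UMIs and 10 droplets, leaving out sex-linked genes, and the members of the lists. Droplets were thinned without replacement to 1500 UMIs. The free RNA profile came from barcodes with fewer than 50 UMIs, and 500 rods per library were thinned as background. Rods were other droplets with at least 20 UMIs of rod genes and fewer than 3 of the 6 Müller genes, and pigment epithelium-like droplets had at least 20 UMIs of Rpe65, Rgr and Ttr. No doublets were removed; leaving out high Scrublet scores was an alternative. Interval code was tested on simulated data. Analyses used Python 3.11.15, numpy 2.4.6, scipy 1.17.1 and scanpy 1.11.5. The droplets and gene lists were chosen with earlier results of these data known. List genes that the text does not name are covered by the counts of their list or are not reported here.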

Additional observations from a re-analysis of the deposited data

How the results depend on the processing

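The 2 libraries have no replicates, so neither a paired fit nor leaving out a replicate was possible, and the shallow control droplets limit low genes. Control held 14 Müller droplets at a minimum of 3000 UMIs, 28 at 12 UMIs of the 6 genes, 6 at a minimum of 10000 UMIs and 3 under 30% unspliced (2 after light damage). Against 320 genes higher and 186 lower, adding unspliced UMIs gave 533 and 476, centring 568 and 71, droplets under 30% unspliced 23 and 10, thinning 41 and 33, and a filter of 100 UMIs 138 and 47. A filter of 10 UMIs gave 320 higher and 300 lower, and a minimum of 10000 UMIs 195 higher. Most of these settings change the number of UMIs, genes or droplets, and adding unspliced UMIs also changes the kind of RNA. Centring moves every ratio by the same amount. Why the counts changed was not tested. The other alternatives, among them a mitochondrial limit of 5%, removal of high doublet scores, free RNA subtracted or limited, another total and leaving out cone, bipolar and amacrine droplets, moved these counts by less than 1.5 times. The minimum of 10000 UMIs, the absence of a minimum share and the omission of the deepest or the Rgs5 control droplet were chosen after seeing the data.

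Of the list and named genes not past 2-fold, 31 of 115 had the other sign when thinned, 21 when centred and 13 at a minimum of 3000 UMIs, and 35 of 99 did under 30% unspliced. Of the 105 genes past 2-fold (103 when thinned) none did when thinned or at a minimum of 3000 UMIs. Centring moves every ratio by less than 2-fold, so it could not turn the sign of these genes and is no check on them. Genes past 2-fold that reversed elsewhere were as follows. Under 30% unspliced, with 3 and 2 droplets, the log2 ratios were 0.038 for Gpr37, 0.038 for Msi1, 0.78 for Abca8b, 1.51 for Abca8a and -2.39 for Cxcl12. At 30% unspliced or more, Rgs5 gave 0.10, and without the control droplet of 19 Rgs5 UMIs Rgs5 gave 0.072, since that droplet held all of its control UMIs. Without a minimum share of the 6 genes Cxcl12 gave -0.38, and the cause was not tested. Glul, Cp, Vim and Mt1 kept their direction under a minimum of 3000 and of 10000 UMIs, thinning and subtraction of free RNA. With centring included, which could not turn them, Glul lay between -2.61 and -1.86 and Cp between 3.28 and 4.03.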
